A study of Mus musculus with 6 samples.

Results

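Cholesterol and fatty acid synthesis were followed through 31 genes in differentiating mouse embryonic stem (ES) cells that were made to express the transcription factor Sp5. The genes were found as the rows of the authors' deposited gene table whose gene name equals a listed member, among 36699 rows. Of the 31, 28 had a row of their own, Tm7sf2 and Acsl3 stood in rows that name several genes, and Mvd had no row. The test covered 25 members, and each of them had at least 1 FPKM in 1 or both groups. FPKM gives sequenced fragments relative to transcript length and to the total that mapped. The genes were described apart as 16 of the sterol branch, 6 that sense or carry sterol and 9 of the fatty acid branch.

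The cells were A2Lox.cre ES cells, a mouse line with a site for doxycycline-inducible transgenes, grown as embryoid bodies and harvested on day 3. The plus group of 3 libraries (replicates 1, 3 and 4) received doxycycline from day 2, for 24 hours, to express Flag-tagged Sp5. The minus group of 3 libraries (replicates 2, 3 and 4) carried the same line without doxycycline. No control with doxycycline alone was analysed here, so effects of the drug and of Sp5 cannot be told apart, and the labels do not say whether replicates were separate cultures. The study asked which genes Sp5 regulates in these cells. Sp5 itself stood at 126 FPKM in plus cells and 0.769 FPKM in minus cells. The ES cell marker Pou5f1 stood at 1058 FPKM in plus cells and 999 FPKM in minus cells, but other markers of the ES and epiblast list changed, as given at the end. The deposited table holds 1 value per group with no SD, and its depth is unknown. Where an error is given below, it is the standard error (SE) that the authors' Cuffdiff statistic implies for the log2 fold change, plus over minus, and "rose" and "fell" mean q under 0.05 in the authors' deposited table.

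Animal cells build cholesterol and fatty acids from the same precursor, acetyl-CoA. In the sterol branch it is joined into mevalonate, then into isoprenoid units, squalene and lanosterol, and finally cholesterol. In the fatty acid branch it is carboxylated and extended by fatty acid synthase, and the product is then elongated and desaturated. Genes of both branches are known targets of the sterol regulatory element-binding proteins (SREBPs), which the Insig proteins hold in the endoplasmic reticulum when sterol is plentiful. SREBPs are known to act on promoters together with factors that bind CCAAT boxes and GC boxes, and Sp factors such as Sp5 bind GC boxes.

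Fatty acid synthesis genes were lower in plus cells, sterol synthesis genes were mixed, and the sizes were small. In the authors' deposited table, 5 of 7 tested fatty acid members fell and none rose, 3 of 12 tested sterol members fell and 1 rose, and 1 of 6 sensing members rose and none fell. Among members with a row of their own, 0 fatty acid members were higher and 0 sensing members lower at an unadjusted Cuffdiff p under 0.05. Across every gene in the file, 23.2% of tested rows were called, 12.7% lower and 10.5% higher. Among rows with 10 FPKM or more in either group, which hold 23 of the 25 tested members, 27.0% were called, 18.3% lower and 8.71% higher. The median log2 fold change was -0.26 over the tested fatty acid members, -0.01 over the sterol members and 0.05 over the sensing members, beside -0.03 over all tested rows. The 8 falls lay between 1.14-fold and 1.37-fold. Ebp was the only called member past 1.5-fold, against 11.2% of all tested rows and 6.15% of those at 10 FPKM or more that were called and past it. No test of a difference between the branches was made.

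**Figure D1:**
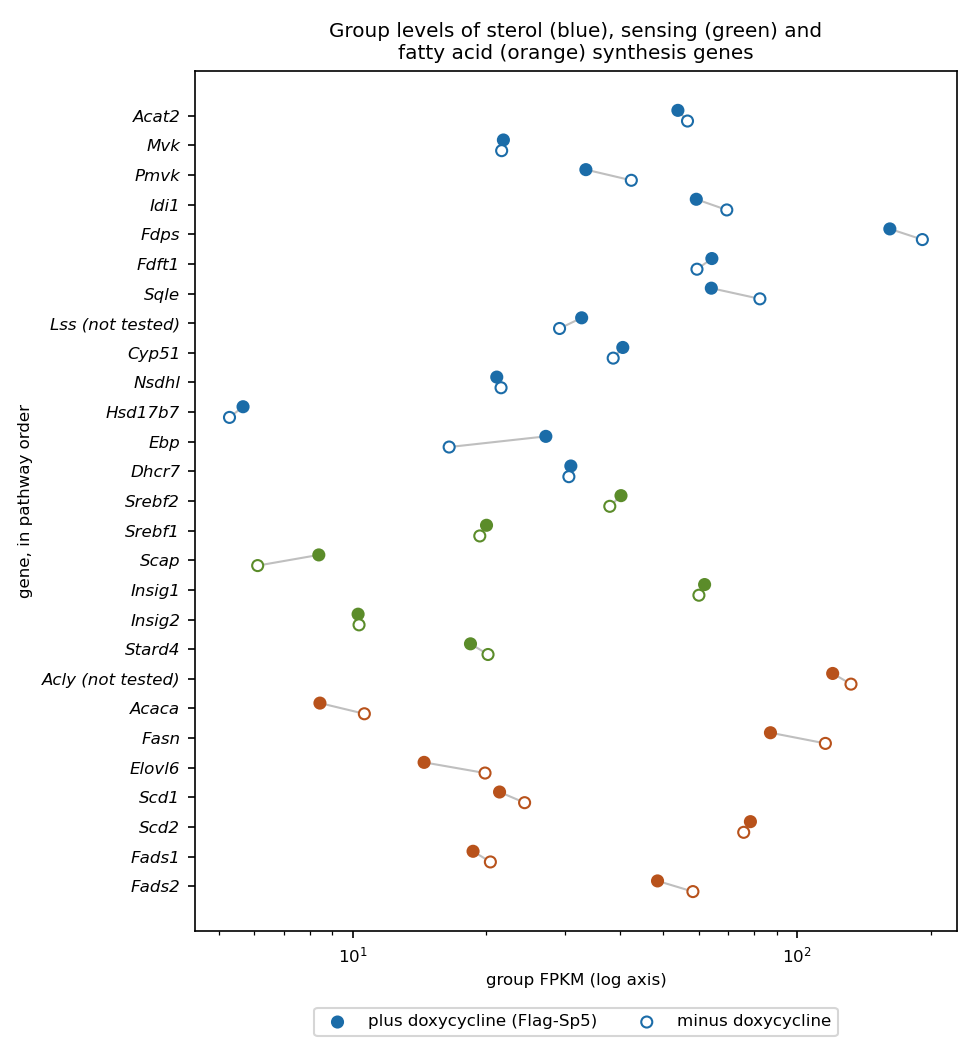
Group FPKM (horizontal log axis) of the 27 members with a row of their own and a value above 0, in pathway order down the page. Filled points are plus cells and open points below them are minus cells, 1 value per group, so no error is drawn. Fdps is highest, at 162 FPKM in plus cells and 191 FPKM in minus cells, and Ebp shows the widest gap.

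In the fatty acid branch, the first committed steps were lower in plus cells. Acly, the enzyme that makes cytosolic acetyl-CoA from citrate, was listed at 120 FPKM in plus cells and 132 FPKM in minus cells, but its row had status FAIL and was not tested. Acaca, acetyl-CoA carboxylase, had 8.44 FPKM in plus cells and 10.6 FPKM in minus cells (log2 fold change -0.33, SE 0.07; q = 4.61e-06 in the authors' deposited table). Fasn, fatty acid synthase, had 87.1 FPKM in plus cells and 116 FPKM in minus cells (-0.41, SE 0.14; q = 0.0200 in the authors' deposited table). Both genes fell, Acaca by a factor of 1.26 and Fasn by 1.33, and the implied SE of Fasn was the wider. The Acaca row (chromosome 11, 83943174 to 84215153 in mm9) overlaps the rows of Gm11437 and Gm17722, so reads may be shared, because the protocol mentions no strand marking. The Fasn row (chromosome 11, 120667254 to 120685492 in mm9) overlaps no other row.

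Elongation and desaturation genes followed with less uniform values. Elovl6, which lengthens palmitate to stearate, had 14.5 FPKM in plus cells and 19.9 FPKM in minus cells, the largest fall among the members (1.37-fold; log2 fold change -0.46, SE 0.06; q = 2.14e-11 in the authors' deposited table; chromosome 3, 129235304 to 129341413 in mm9). Fads2, the desaturase that opens the polyunsaturated pathway, had 48.5 FPKM in plus cells and 58.3 FPKM in minus cells and fell 1.20-fold, with q = 0.000418 in the authors' deposited table. Fads1, the desaturase of a later step, lies in the same cluster on chromosome 19 and had 18.7 FPKM in plus cells and 20.4 FPKM in minus cells, which did not pass (q = 0.158 in the authors' deposited table). Fads3, a related gene chosen after its values were seen, stood under 1 FPKM, at 0.505 in plus cells and 0.830 in minus cells, and it fell, with q = 0.0264 in the authors' deposited table. The difference between these desaturases was not tested.

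Scd1 and Scd2 encode stearoyl-CoA desaturases, which make monounsaturated fatty acids. Scd1 had 21.4 FPKM in plus cells and 24.4 FPKM in minus cells and fell 1.14-fold (log2 fold change -0.19, SE 0.06; q = 0.0166 in the authors' deposited table). Scd2, the more abundant gene here, had 78.5 FPKM in plus cells and 75.8 FPKM in minus cells and was not called (0.05, SE 0.07). The genes are near copies: their longest open reading frames were 90.3% identical in GENCODE vM21 transcripts. The longest identical run between any of their whole protein-coding transcripts was 147 bases. Scd1 and Scd3 shared a run of 185 bases, so the counting may have split reads among them and the values are uncertain. For Fads1 and Fads2 the longest shared run was 17 bases, and for Fads2 and Fads3 it was 54 bases. Reads may therefore also have been split between Fads2 and Fads3. Acsl3, an acyl-CoA synthetase that activates fatty acids, stood in a row shared with Utp14b, at 43.3 FPKM in plus cells and 38.7 FPKM in minus cells, and was not called (unadjusted p = 0.0269 and q = 0.0996 in the authors' deposited table).

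**Figure D2:**
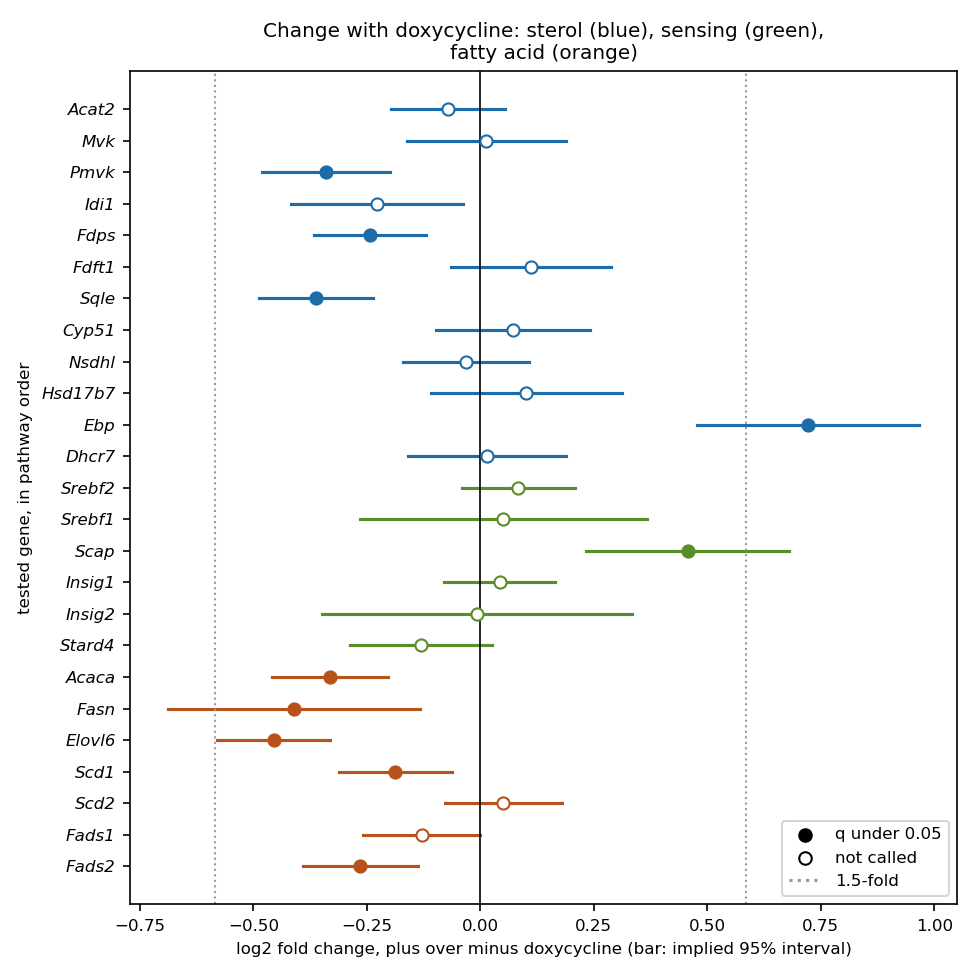
Log2 fold change, plus over minus doxycycline (horizontal axis), of the 25 tested members in pathway order, with bars for the 95% interval implied by the authors' statistic. Filled points have q under 0.05, and dotted lines mark 1.5-fold; the fatty acid members (orange) lie left of 0 except Scd2, and Ebp at 0.72 lies farthest right.

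The promoter windows of Fasn and Elovl6, the genes with the largest falls, are shown to set their motif words beside those of Ebp and Insig1 below. Each window runs from 250 bases before to 50 after a RefSeq start (build GRCm38.p6), 5′ to 3′ on the gene's strand. Capitals mark the GC box word GGGCGG, the box spelt CCAAT, and the sterol element TCACNCCAC, each read on both strands. The Fasn window is on the minus strand of chr11:120824498-120824797 and the Elovl6 window on the plus strand of chr3:129532136-129532435.
Fasn: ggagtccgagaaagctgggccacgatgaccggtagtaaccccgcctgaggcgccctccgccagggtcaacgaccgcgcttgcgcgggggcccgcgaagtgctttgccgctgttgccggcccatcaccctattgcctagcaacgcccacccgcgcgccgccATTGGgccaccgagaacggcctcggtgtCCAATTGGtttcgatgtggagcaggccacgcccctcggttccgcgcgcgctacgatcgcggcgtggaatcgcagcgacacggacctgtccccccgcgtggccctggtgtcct
Elovl6: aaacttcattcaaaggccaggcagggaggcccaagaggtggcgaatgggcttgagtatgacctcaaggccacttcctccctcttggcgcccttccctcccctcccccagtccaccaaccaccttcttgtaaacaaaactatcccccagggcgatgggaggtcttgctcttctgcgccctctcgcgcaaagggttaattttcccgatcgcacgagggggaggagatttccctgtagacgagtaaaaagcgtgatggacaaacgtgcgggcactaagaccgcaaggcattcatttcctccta
The Fasn window held 3 CCAAT words, of which 2 overlap as the palindrome near the start, and no GC box word. The Elovl6 window held none of these words. That says only that these letters are absent from this window.

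In the mevalonate part of the sterol branch, 2 of 5 tested members fell and none rose in the authors' deposited table. Among all rows at 10 FPKM or more, 18.3% fell and 8.71% rose. Pmvk, phosphomevalonate kinase, had 33.5 FPKM in plus cells and 42.4 FPKM in minus cells (log2 fold change -0.34, SE 0.07; q = 2.66e-05 in the authors' deposited table; chromosome 3, 89263040 to 89272935 in mm9). Fdps, which makes the farnesyl diphosphate used for sterols and for protein prenylation, had 162 FPKM in plus cells and 191 FPKM in minus cells (-0.24, SE 0.06; q = 0.000889 in the authors' deposited table). Pmvk fell 1.27-fold and Fdps 1.18-fold; the Fdps row overlaps that of a U6 RNA. Idi1, the isomerase between them in the pathway, had 59.3 FPKM in plus cells and 69.4 FPKM in minus cells, and its q of 0.0719 in the authors' deposited table missed the threshold. Acat2, the thiolase that starts the branch, had 53.9 FPKM in plus cells and 56.7 FPKM in minus cells, and Mvk, mevalonate kinase, had 21.8 FPKM in plus cells and 21.6 FPKM in minus cells. Neither was called. Hmgcs1, which makes HMG-CoA, had only 2 rows on unplaced contigs, both listed at 0 in both groups and not tested. All 368 rows on such contigs were listed at 0, so this says nothing of its level.

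From squalene to cholesterol, 1 of 7 tested members fell and 1 rose in the authors' deposited table. The shares among all rows at 10 FPKM or more were 18.3% lower and 8.71% higher. Sqle, squalene epoxidase, a rate-controlling enzyme of the branch, had 64.1 FPKM in plus cells and 82.4 FPKM in minus cells, a 1.29-fold fall (log2 fold change -0.36, SE 0.06; q = 2.24e-07 in the authors' deposited table; chromosome 15, 59146632 to 59162747 in mm9). Ebp, the sterol isomerase known as emopamil-binding protein, had 27.2 FPKM in plus cells and 16.5 FPKM in minus cells. It rose 1.65-fold (0.72, SE 0.12; implied 95% interval 1.393-fold to 1.955-fold; q = 1.2e-07 in the authors' deposited table; chromosome X, 7762455 to 7770638 in mm9). Ebp thus moved against Sqle, a gene of an earlier step, and its row overlaps no other.

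The other genes of this stretch were not called. Fdft1, squalene synthase, had 64.3 FPKM in plus cells and 59.5 FPKM in minus cells, and its row overlaps that of Ctsb. Cyp51, the lanosterol demethylase, had 40.5 FPKM in plus cells and 38.6 FPKM in minus cells. Nsdhl, a dehydrogenase that takes part in removing methyl groups, had 21.1 FPKM in plus cells and 21.6 FPKM in minus cells. These 3 genes lay within 1.08-fold of equal levels. Hsd17b7, the keto-reductase of the same step, was the lowest of the branch at 5.67 FPKM in plus cells and 5.28 FPKM in minus cells. Dhcr7, a reductase that ends one route to cholesterol, had 30.96 FPKM in plus cells and 30.6 FPKM in minus cells. Lss, lanosterol synthase, was listed at 32.7 FPKM in plus cells and 29.2 FPKM in minus cells but had status FAIL, and the row that Tm7sf2, a sterol reductase, shares with 1110014N23Rik and Zfpl1 had 53.9 FPKM in plus cells and 51.2 FPKM in minus cells and was not called.

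The Ebp window, the only one shown of a gene that rose, is on the minus strand of chrX:8193463-8193762.
Ebp: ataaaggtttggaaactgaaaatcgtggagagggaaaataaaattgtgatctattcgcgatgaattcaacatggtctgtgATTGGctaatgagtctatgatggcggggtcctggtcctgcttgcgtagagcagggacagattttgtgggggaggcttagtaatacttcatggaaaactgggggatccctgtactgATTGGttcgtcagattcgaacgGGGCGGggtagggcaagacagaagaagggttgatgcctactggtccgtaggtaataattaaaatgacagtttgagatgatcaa
It held 1 GC box word, 33 to 28 bases before the start, and 2 CCAAT words on the other strand.

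Of the genes that sense or carry sterol, Scap was the one called. Srebf2, the SREBP that chiefly drives sterol genes, had 40.1 FPKM in plus cells and 37.9 FPKM in minus cells, and Srebf1, which chiefly drives fatty acid genes, had 20.005 FPKM in plus cells and 19.3 FPKM in minus cells. Neither was called (q = 0.423 for Srebf2 and q = 0.923 for Srebf1 in the authors' deposited table). The implied 95% interval of Srebf1 ran from 0.832-fold to 1.29-fold, and its row overlaps that of Rai1. Scap, the escort that carries SREBPs out of the endoplasmic reticulum, had 8.39 FPKM in plus cells and 6.11 FPKM in minus cells and rose 1.37-fold (log2 fold change 0.46, SE 0.11; q = 0.000545 in the authors' deposited table; chromosome 9, 110235792 to 110287450 in mm9). Its row overlaps that of 5830462I19Rik, and without the members whose rows overlap another, none of the 3 left in the group was called.

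Insig1, a sensitive SREBP target that also retains SREBPs, had 61.9 FPKM in plus cells and 60.1 FPKM in minus cells, with an implied 95% interval of 0.946-fold to 1.12-fold. Insig2, its relative, had 10.3 FPKM in both groups, with a wider interval of 0.785-fold to 1.26-fold. Stard4, a cholesterol carrier of the cytosol and also an SREBP target, had 18.4 FPKM in plus cells and 20.2 FPKM in minus cells. None of these 3 was called. Over all 15 tested members that were not called, the implied intervals stayed between 0.749-fold and 1.29-fold, so changes of 1.5-fold lay outside each of them under the authors' error model.

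The Insig1 window, from an SREBP target that was not called, is on the plus strand of chr5:28071162-28071461.
Insig1: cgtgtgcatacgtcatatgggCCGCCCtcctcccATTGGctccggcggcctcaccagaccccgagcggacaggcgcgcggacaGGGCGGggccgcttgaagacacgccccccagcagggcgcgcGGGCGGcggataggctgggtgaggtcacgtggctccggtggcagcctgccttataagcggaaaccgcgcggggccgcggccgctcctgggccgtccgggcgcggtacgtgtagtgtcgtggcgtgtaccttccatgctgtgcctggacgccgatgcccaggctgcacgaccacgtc
It held 3 GC box words and 1 CCAAT word.

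**Figure D3:**
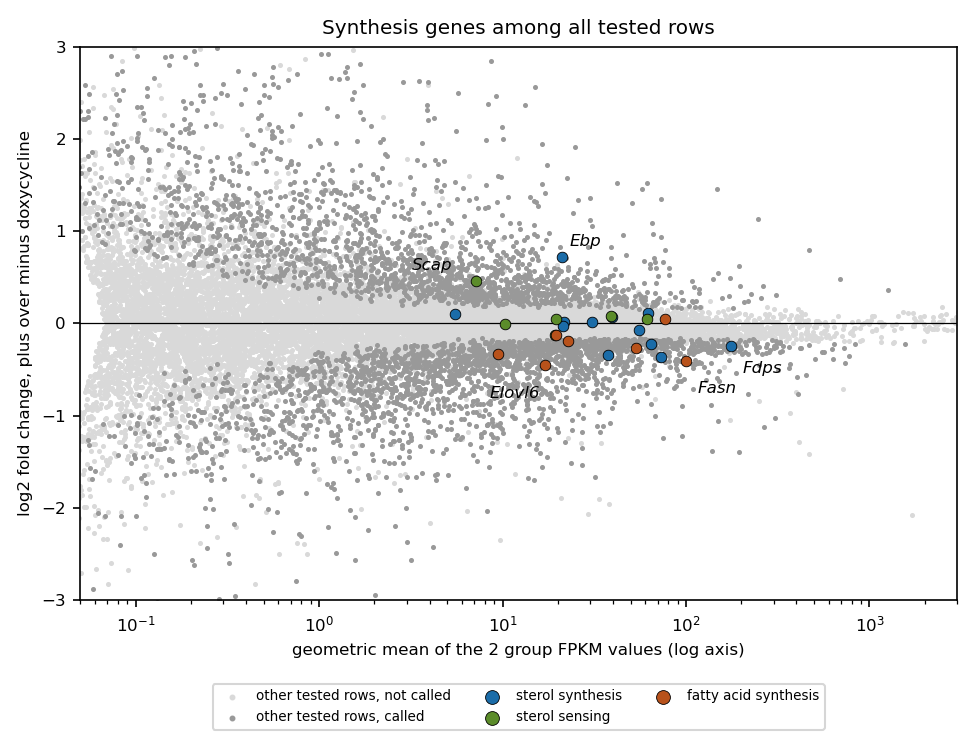
Log2 fold change, plus over minus doxycycline, against the geometric mean of the 2 group FPKM values (log axis) for 18284 tested rows with a fold, of which 235 lie outside the plotted range. Members are coloured by branch; they sit near the horizontal line at levels above 5 FPKM, with Ebp and Scap above it and Fasn, Elovl6 and Fdps below.

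RefSeq promoter windows were found for 24 of the 31 members (32 windows). At least 1 GC box word was in 75.0% of member windows, against 35.7% of all 32851 windows, and a CCAAT word in 62.5% against 37.4%. Member windows were also richer in G and C, with a median of 61.8% against 52.7% for all windows. The sterol element TCACNCCAC was in 1 member window (3.12%), that of Hmgcs1, against 1.24% of all windows. A longer fixed form of it was in no member window and in 0.0913% of all windows. The looser TCANNCCA, which overlaps it, was in 12.5% of member windows and 15.7% of all windows.

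By branch, a GC box word was found for 12 of 13 matched sterol genes, 5 of 5 sensing genes and 3 of 6 fatty acid genes. The 4 matched genes without one, Pmvk, Acaca, Fasn and Elovl6, all fell, and Fads2 was the only matched gene that fell and had one. Which starts these cells use was not determined. The single Acaca window had 39.67% G and C, against a median of 61.83% for member windows, and may not cover the main start. The 2 genes that rose, Ebp and Scap, and the 17 not called or not tested had one. Across all genes matched and tested at 10 FPKM or more a GC box word was found for 76.3% of 810 that fell, 75.9% of 348 that rose and 70.8% of 3125 not called. The CCAAT word split the members in a similar way. It was found for 12 of 13 sterol genes, 4 of 5 sensing genes and 3 of 6 fatty acid genes. By call, 2 of 5 that fell, 1 of 2 that rose and 16 of 17 not called or not tested had it. Across all these genes the CCAAT shares were 40.7%, 47.4% and 46.8% for fell, rose and not called. No window was found for Fdps, Fdft1, Sqle, Stard4, Scd1, Scd2 and Fads1, so the windows cover 5 of the 8 members that fell. These splits among the members were seen after their values and were not tested.

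**Figure D4:**
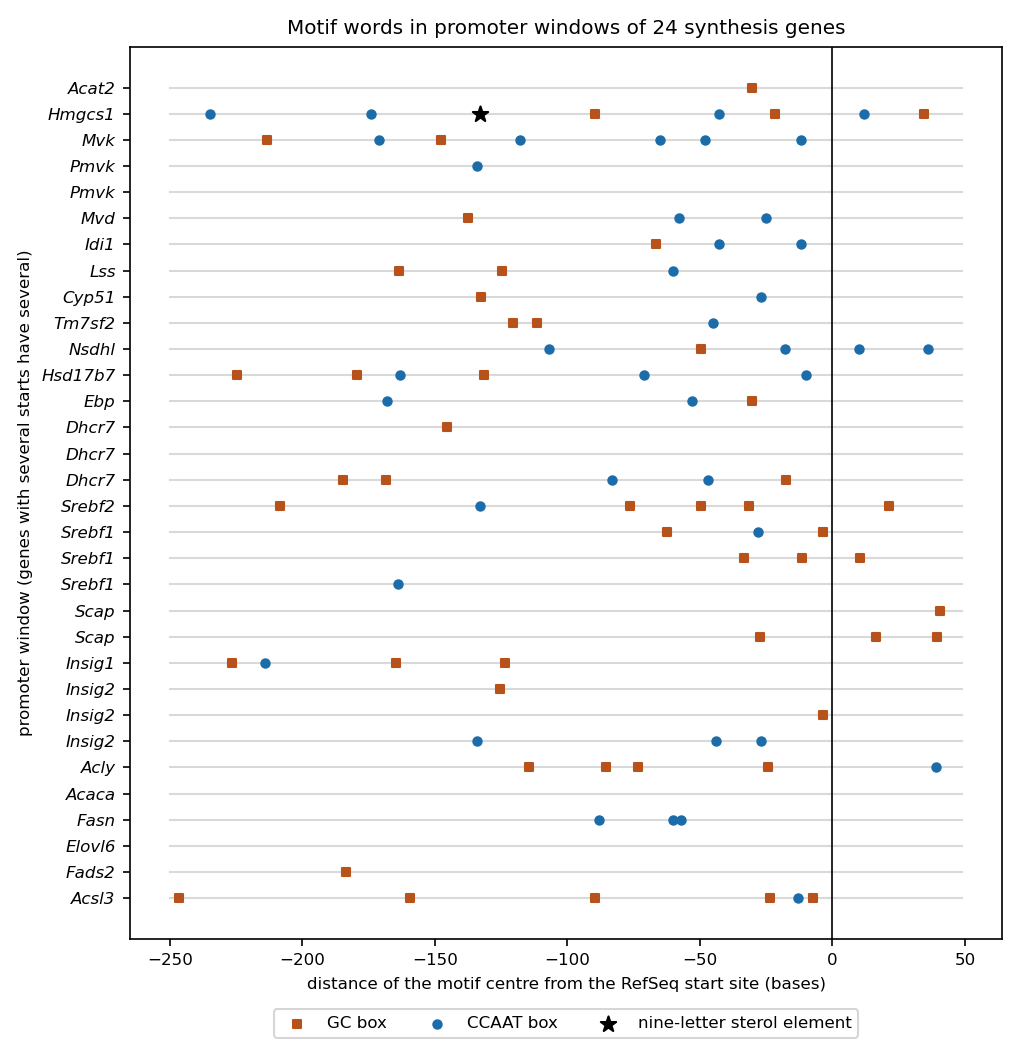
Centres of GC box, CCAAT and nine-letter sterol element words (horizontal axis, bases from the RefSeq start) in 32 windows of 24 members, in pathway order down the page. Most sterol and sensing windows hold GC box and CCAAT words, and the single sterol element is in the Hmgcs1 window.

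Among all rows at 10 FPKM or more, 8.71% rose and 18.3% fell. Of 9 other genes of sterol synthesis tested, 3 rose and none fell in the authors' deposited table (1 was lower at an unadjusted Cuffdiff p under 0.05). They were Lbr, the lamin B receptor with sterol reductase activity (50.3 FPKM in plus cells and 42.0 FPKM in minus cells), Cyb5r3, a cytochrome b5 reductase (63.6 FPKM in plus cells and 53.8 FPKM in minus cells), and Por, the electron donor of cytochrome P450 enzymes (27.1 FPKM in plus cells and 20.8 FPKM in minus cells). Each serves processes beside sterol synthesis. The largest of these rises was that of Por, 1.299-fold.

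Other genes of fatty acid synthesis and activation were mostly lower where called, with 9 of 23 tested lower and 1 higher in the authors' deposited table. Of all tested rows, 12.7% were called lower and 10.5% higher. Acsl4, the acyl-CoA synthetase that prefers arachidonic acid, had 13.96 FPKM in plus cells and 39.8 FPKM in minus cells and fell 2.85-fold (log2 fold change -1.51, SE 0.11; q given as 0 in the authors' deposited table). Mid1ip1, an activator of acetyl-CoA carboxylase, had 11.2 FPKM in plus cells and 19.8 FPKM in minus cells and fell 1.77-fold. Acsl1 fell 1.503-fold and Acsl6 1.48-fold, both to low levels in plus cells, 2.05 FPKM for Acsl1 and 1.33 FPKM for Acsl6. Elovl7, an elongase of long chains, rose 1.29-fold to 2.02 FPKM in plus cells, against 1.57 FPKM in minus cells. The median log2 fold change of this list was -0.12.

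Genes of sterol uptake, movement and efflux went both ways, with 4 of 15 tested higher and 4 lower in the authors' deposited table. Of all tested rows, 10.5% were called higher and 12.7% lower. Scarb1, the receptor for high-density lipoprotein, had 9.70 FPKM in plus cells and 16.4 FPKM in minus cells and fell 1.69-fold. Abcg1, a sterol exporter, fell 1.65-fold to 1.97 FPKM in plus cells, and Npc1, which exports cholesterol from lysosomes, fell 1.24-fold to 9.75 FPKM. Apoe, a lipoprotein component, had 821 FPKM in plus cells and 588 FPKM in minus cells and rose 1.40-fold. Vldlr rose 1.56-fold to 3.18 FPKM in plus cells, Mbtps1, a protease that activates SREBPs, rose 1.14-fold, and Npc2, the partner of Npc1, rose 1.12-fold.

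**Figure D5:**
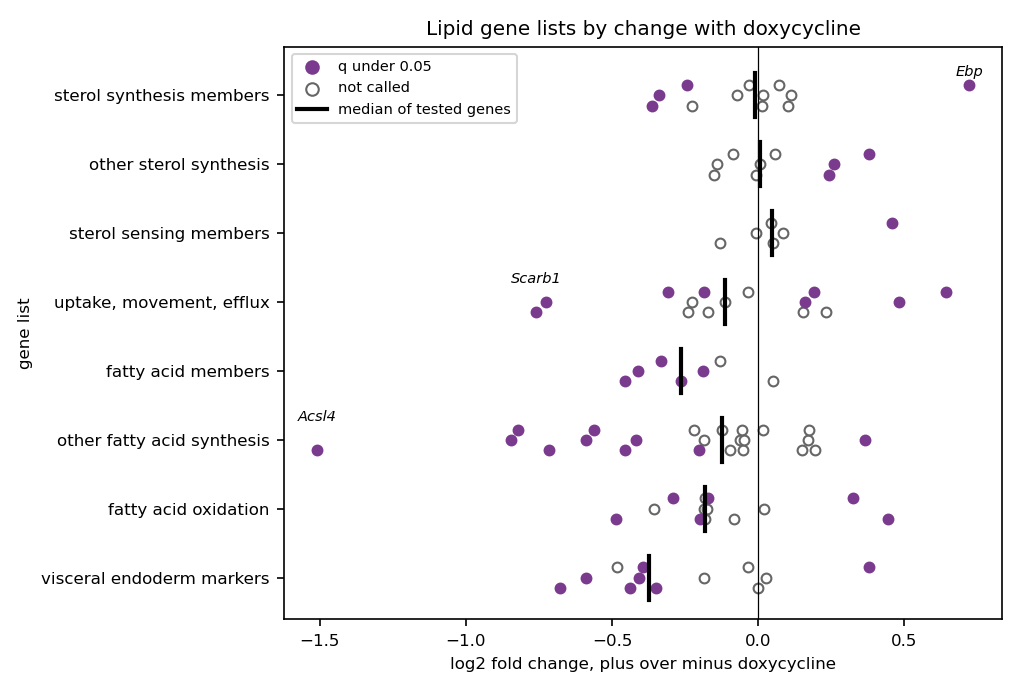
Log2 fold change, plus over minus doxycycline (horizontal axis), of tested genes in 8 lists, 1 point per gene. Filled points have q under 0.05 and bars mark medians, which are -0.26 for the fatty acid members and -0.37 for visceral endoderm markers; Acsl4 lies farthest left.

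Markers of visceral endoderm, an embryonic layer that handles lipid, were lower beside the fatty acid genes. Of 12 tested markers 6 fell and 1 rose in the authors' deposited table. The shares among all rows at 10 FPKM or more were 18.3% lower and 8.71% higher. None of the markers was listed at 0, and their summed level was 173 FPKM in plus cells and 211 FPKM in minus cells. Apoa1 had 12.6 FPKM in plus cells and 18.9 FPKM in minus cells, and Apob had 14.9 FPKM in plus cells and 19.8 FPKM in minus cells. Apoa4, another lipid carrier and the marker that rose, had 5.07 FPKM in plus cells and 3.90 FPKM in minus cells. Apoa2, Apom, Ttr, Sox17 and Gata4 were not called. The feeder layer was fibroblasts, and of 10 tested fibroblast markers 2 rose and 2 fell, beside 10.5% higher and 12.7% lower of all tested rows. Their summed level was 37.1 FPKM in plus cells and 35.03 FPKM in minus cells. That sum rests largely on Fbln1, which rose to 18.3 FPKM in plus cells, against 15.5 FPKM in minus cells. Col1a1 rose 3.99-fold, to 4.43 FPKM in plus cells, against 1.11 FPKM in minus cells, while Thy1 fell 1.45-fold and Dcn 1.49-fold. Of 7 tested ES and epiblast markers 2 rose and 3 fell, beside 8.71% higher and 18.3% lower of rows at 10 FPKM or more. Nanog rose 2.54-fold and Tdgf1 1.46-fold, Utf1 fell 2.64-fold, Dppa4 1.23-fold and Lin28a 1.21-fold, and Sox2 and Pou5f1 were not called. The markers named in this paragraph were chosen after their values were seen. The part of other cell types in the lower fatty acid genes was not tested, and in bulk samples fewer cells of a type and less RNA per cell cannot be told apart.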

How the data were processed

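Poly(A)-selected RNA of 6 libraries in 2 groups of 3 was sequenced by the submitters. The submitters' processing notes name TopHat2 2.0.8 and Bowtie, Cufflinks 2.0.2 with Cuffdiff, Picard, and build mm9. The gene annotation, library scaling and filters were not given in the sources used here. The authors deposited 1 table with an FPKM value for each group, a log2 fold change, a test statistic, p-values and q-values. The design allowed for a refit of values per library, but the table holds group values only, so the authors' calls (status OK, q under 0.05) were the test. P-values may measure technical spread only.

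In 18284 tested rows above 0 in both groups the deposited log2 fold change equalled the ratio of group values to within 1.31e-05, and the deposited p equalled the two-sided normal p of the statistic to within 2.84e-06. The standard error was therefore taken as the log2 fold change over that statistic, with a 95% interval of 1.96 SE. It rests on the authors' error model. Adjusting the deposited p-values over the 18537 tested rows gave the deposited q-values to within 1.79e-06. Fold changes carry no pseudocount. Start coordinates were read as 0-based and written from 1; mm9 coordinates and GRCm38.p6 windows were never combined.

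All members were named. From the neighbouring lists, called genes at 1 FPKM or more were named, up to the 4 largest per direction, and all where 5 or fewer were called. One gene of the uptake and efflux list is not reported here. The members and lists were chosen with earlier results of these data known. Protein identity was not analysed here; transcripts of GENCODE vM21 were compared in its place. Python 3.11.15, numpy 2.4.6, pandas 2.3.3, scipy 1.17.1 and biopython 1.88 were used.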

Additional observations from a re-analysis of the deposited data

How the results depend on the processing

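Of 39 alternatives over the 3 groups of members, 34 kept the count of called members within 1.5 times, or moved the median log2 fold change by less than the median implied SE. Some of the 34 could not move. All 25 tested members had 1 FPKM or more, so that limit repeated the main result in each group. The sensing group has no row naming several genes, so including such rows left it unchanged. With a minimum fold of 1.5, the sterol branch kept 1 called member (Ebp) and the sensing group and the fatty acid branch had 0, where Cuffdiff's unadjusted p under 0.05 with no minimum fold gave 1 for the sensing group and 6 for the fatty acid branch. With q under 0.01 the fatty acid branch had 3 called members, all lower, as Fasn and Scd1 missed that threshold. Without members whose row overlaps another, the sensing group had 0 called of 3; this setting, the inclusion of rows naming several genes and the unadjusted p were chosen after seeing the data. Changes were also centred on the median of tested rows at 1 FPKM or more, which was -0.04. Called members were kept if their centred change passed 1.96 SE, and q was not recomputed. This could remove calls but not add any, so it cannot show which members would pass q under 0.05 after centring. It kept 4 for the sterol branch, 1 for the sensing group and 5 for the fatty acid branch. The centred medians were 0.03 for the sterol branch, 0.09 for the sensing group and -0.22 for the fatty acid branch. Without members whose row overlaps another, the sensing median was -0.01, against 0.05 as reported. The signs of the sterol median, -0.01 as reported, and of the sensing median are therefore not settled. No paired analysis was possible because the table holds no values per library, and leaving out a library was not run for the same reason. Depth is unknown, so no counting interval can be given.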

Other observations

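Genes of mitochondrial fatty acid oxidation, the pathway that breaks fatty acids down, went both ways. Of 13 tested, 4 fell and 2 rose in the authors' deposited table, and the median log2 fold change was -0.18. Among all rows at 10 FPKM or more, 18.3% fell and 8.71% rose. Cpt2, the inner-membrane carnitine palmitoyltransferase, had 10.4 FPKM in plus cells and 14.6 FPKM in minus cells and fell 1.40-fold, with q = 2.25e-07 in the authors' deposited table. Acadl, a long-chain acyl-CoA dehydrogenase, had 16.4 FPKM in plus cells and 20.05 FPKM in minus cells. Smaller falls were those of Cpt1c, 1.149-fold, and Hadh, 1.13-fold. Cpt1a, the outer-membrane enzyme that controls entry of fatty acids, had 2.69 FPKM in plus cells and 1.97 FPKM in minus cells and rose 1.36-fold. Acaa2, a thiolase of the last step, had 16.7 FPKM in plus cells and 13.4 FPKM in minus cells and rose 1.25-fold. Synthesis and oxidation lists were not tested against each other.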
